A study of Rattus norvegicus with 48 samples.

Results

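Between 7-d and 14-d of daily dosing with 45 mg/kg thioacetamide (TAA), 29 liver miRNAs fell relative to their controls and 5 rose. Under each of 4 ways of scaling the counts, 14 of the 29 and all 5 were called. Of the 29, 1, miR-34a-5p, was still called above its controls at 14-d (0.664% of all tested were), though not when all 48 libraries were fitted together. This change was examined in liver small RNA of male Sprague-Dawley rats, in 12 of the 48 libraries of the study: the high dose 7-d rats 25 to 27, the high dose 14-d rats 7 to 9, and the vehicle-treated controls of each time point, rats 4 to 6 at 7-d and rats 13 to 15 at 14-d, with 1 library from each rat and 3 rats in each of the 4 groups. The change in the controls from 7-d to 14-d was subtracted from the change in the high dose rats, so that each value is the effect of the high dose at 14-d minus its effect at 7-d, as a log2 difference. Both groups of treated rats received the same daily dose, and the rats at 14-d were other animals than those at 7-d, so that no rat was followed over time. The study also held low (4.5 mg/kg) and middle (15 mg/kg) doses and the time points 3-d and 28-d, which are used below only to place the high dose rats. Of 764 mature miRNAs in the table, 664 had a read in at least 1 of the 48 libraries, and all of these but 363, which did not reach 5 reads per 1000000 (RPM) in at least 3 libraries, were tested.

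TAA is a hepatotoxicant that becomes harmful when the liver oxidizes it, so the hepatocytes that do so are the cells it injures, and repeated dosing leads in rats to regeneration, scarring and liver tumors. A miRNA is a short RNA cut from a hairpin precursor, either arm of which can give the mature strand. It pairs with messenger RNAs mainly through its seed, bases 2 to 8 from the 5′ end, and lowers their translation and stability. Liver tissue holds hepatocytes with stellate cells, endothelium, bile duct, resident macrophages and blood. In such whole tissue, fewer cells of a type and less of a miRNA in each cell cannot be told apart.

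The mature sequences of the miRNAs on which the results turn follow, 5′ to 3′ and with the seed in capitals, so that shared seeds can be seen. They were taken from RefSeq (GRCr8), where 28 of the 34 miRNAs called below and 270 of those tested were matched by name.
miR-34a-5p: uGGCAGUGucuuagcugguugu
miR-34c-5p: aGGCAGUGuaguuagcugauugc
miR-132-3p: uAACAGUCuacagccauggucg
miR-212-3p: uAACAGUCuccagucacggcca
miR-21-5p: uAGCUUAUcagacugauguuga
miR-21-3p: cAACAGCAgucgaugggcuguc
miR-155-5p: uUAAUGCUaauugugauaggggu
miR-190b-5p: uGAUAUGUuugauauuagguu
miR-185-5p: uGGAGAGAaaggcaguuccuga
miR-6329: aAUGUGACucagcuaucugaaca
miR-466b-5p: uAUGUGUGuguguauguccaug
miR-466c-5p: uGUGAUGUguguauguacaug
miR-466b-2-3p: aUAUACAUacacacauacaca
miR-466b-3p: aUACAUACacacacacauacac
miR-434-3p: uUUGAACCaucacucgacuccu

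miR-132-3p and miR-212-3p had the same seed, and both were lower at 14-d than at 7-d relative to the controls. miR-34a-5p and miR-34c-5p also shared a seed, which the tested miR-449a-5p has too, and only miR-34a-5p was called. The hairpins of the pair miR-132 and miR-212 lie next to each other on chromosome 10 (GRCr8, forward strand), with miR-212-3p at chr10:60521811-60521832 and miR-132-3p at chr10:60522091-60522112. The miR-466 strands are repeats of the same few bases from hairpins inside the gene Sfmbt2 on chromosome 17 (reverse strand), such as miR-466b-5p at chr17:72942513-72942534 and miR-466c-5p at chr17:72927649-72927669. miR-34a-5p lies at chr5:165815971-165815992, miR-155-5p at chr11:37261117-37261139 within its own host transcript Mir155hg, miR-6329 at chr8:61334292-61334314 within the span of Rdx, miR-185-5p at chr11:96169041-96169062 within Tango2, and miR-434-3p at chr6:134330451-134330472 within the span of the imprinted gene Rtl1.

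The 12 libraries held 4829217 to 14906217 counts (median 10041850.5), the lowest being high dose 14-d replicate 8, and 3 counts correspond to 0.201 to 0.621 RPM. Replicates correlated at r = 0.971 to 0.998 over miRNAs (Pearson's r of log2 (count + 1)), lowest among the high dose 7-d rats, and no pair held identical values. Of the marker lists, hepatocyte markers took 221131 to 269771 RPM in each library. Of the 6 muscle markers, miR-1-3p and miR-208a-3p were at 0 in all 12, and the others were not. The 6 summed to 27.8 to 47.3 RPM in the high dose 7-d rats against 19.8 to 25.8 in their controls, and to 19.7 to 33.5 in the high dose 14-d rats. Of the 2 tested muscle miRNAs, 1 was called above control at 7-d (14% of all tested were) and 0 between the time points. Levels are given as RPM scaled by the upper quartile over all 48 libraries (normalized RPM), effects as log2 fold changes ± standard error from the fit of the 12 libraries.

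The effect of the high dose differed between 7-d and 14-d for 34 of the tested miRNAs (11.3%; edgeR, adjusted p below 0.05), 29 lower at 14-d (9.63%) and 5 higher (1.66%). An unadjusted p below 0.05 was reached by 57, and the thresholds of the study's methods (unadjusted p below 0.05, fold change above 1.5) by 53 (17.6%), of which 41 were lower and 12 higher. The 29 lower ones ranged from -3.84 to -0.72 and the 5 higher ones from 1.16 to 2.85 on the log2 scale. The median of all tested was -0.19 (quartiles -0.52 and 0.12), and relative to that median the 29 were at -3.65 to -0.53 and the 5 at 1.35 to 3.04. The split of calls moved with the scaling: TMM gave 14 lower and 10 higher with a median of 0.04, DESeq2's size factors 14 and 6 (median -0.02), and library size alone 16 and 7 (median -0.04). In all 4 scalings, 14 of the 29 lower and all 5 higher miRNAs were called. Of the other 15 lower ones, miR-674-5p and miR-21-5p were called in 2 of the 4 scalings. The rest were called under the upper quartile alone. The count of 34 was 17 without control 7-d replicate 4, 19 without control 7-d replicate 5 or 6 or control 14-d replicate 14, 20 without high dose 14-d replicate 8 and 21 without control 14-d replicate 15.

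At 7-d the high dose changed 57 miRNAs (18.9%), 42 of them upward, whereas at 14-d it changed 5 (1.66%), 3 of them downward (0.997%), with 54 at an unadjusted p below 0.05 and 28 (9.3%) past the study's thresholds. Within the high dose rats 39 miRNAs (13%) differed between 14-d and 7-d, 32 of them lower at 14-d (10.6%) and 7 higher (2.33%), and within the controls 2 (0.664%), with 47 at an unadjusted p below 0.05. Of the 29 lower miRNAs, 26 were called above the controls at 7-d (14% of all tested were). At 14-d 1 of the 29, miR-34a-5p, was still called above them (0.664% of all tested were). The 29 had been above control in all 3 high dose 7-d rats without overlap (22.6% of all tested were), and all 29 were lower in the 3 high dose 14-d rats than in the 3 high dose 7-d rats (20.3% of all tested). At 14-d, 5 of the 29 were above their controls without overlap (10.6% of all tested) and 5 below them (14%). Of the 5 higher miRNAs, 4 had all 3 high dose 14-d rats above all 3 high dose 7-d rats (6.98% of all tested). The median effect of the 29 was 1.48 at 7-d and -0.15 at 14-d. These counts are parts of the same contrast that called the 29 and are descriptions. The 57 calls at 7-d became 27, 30 and 35 without control 7-d replicates 4, 5 and 6, and the 2 calls within the controls became 0 without any of these 3 or control 14-d replicate 15, 1 without control 14-d replicate 13 or high dose 14-d replicate 8, 4 and 8 without high dose 7-d replicates 27 and 25, and 5 without control 14-d replicate 14. In 5 of the 29 (miR-21-5p, miR-21-3p, miR-466b-3p, miR-466b-2-3p and miR-466b-4-3p) the rise in the controls was larger than the fall in the high dose rats.

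The 5 miRNAs called at 14-d were miR-434-3p (2.40 ± 0.39), miR-34a-5p (1.40 ± 0.31), miR-29a-3p (-0.72 ± 0.16), miR-122-3p (-0.68 ± 0.15) and miR-26a-5p (-0.42 ± 0.09), and the first 2 of these were called between the time points as well. miR-122-3p is 1 of 4 tested hepatocyte miRNAs. Of these 4, 1 was called higher in the 14-d than in the 7-d controls and 0 between the high dose groups. In the fit of all 48 libraries, miR-34a-5p was not called at 14-d (adjusted p = 0.276). The count of 5 was 0 when rat 13, 14 or 9 was left out, and 1 without rat 15 or 8 or any of the 7-d controls (rats 4, 5 and 6). It was 2 without rat 7, 9 without rat 25 and 11 without rat 26.

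**Figure D1:**
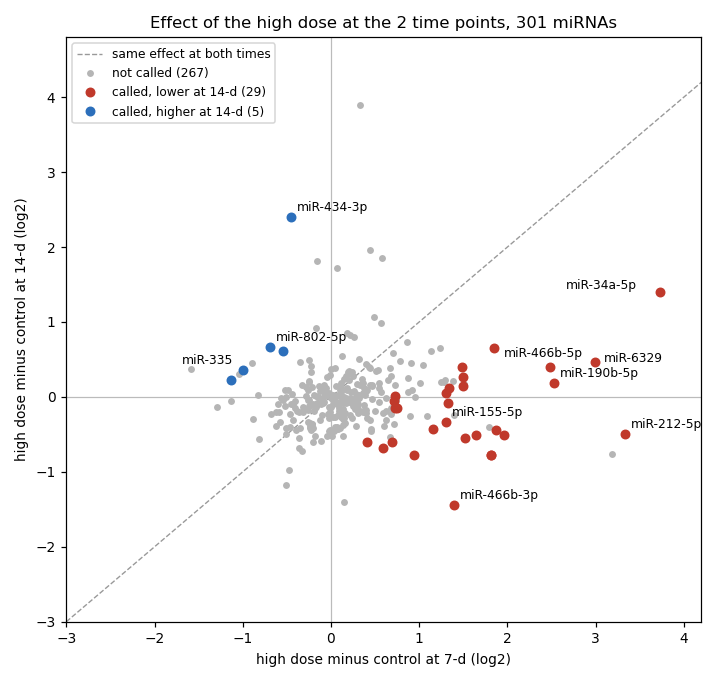
Log2 effect of the high dose against its controls at 7-d (horizontal) and at 14-d (vertical) for the tested miRNAs. Points on the dashed line have the same effect at both times, and the 29 red points, called lower at 14-d, lie to the right of 0 and below the line while the 5 blue points, called higher, lie to the left of 0 and above it.

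Among the miRNAs linked to p53, the tumor suppressor that answers DNA damage and stress, the difference lay in miR-34a, which p53 induces directly and which represses cell cycle genes. miR-34a-5p was at 514, 468 and 801 normalized RPM in the high dose 7-d rats against 41.6, 48.9 and 43.7 in their controls, and at 39.5, 106 and 75.5 in the high dose 14-d rats against 22.9, 31.04 and 29.2 in theirs. The 7-d rats were above every 14-d rat, and the 14-d rats were still above all of their own controls. The effect was 3.73 ± 0.34 at 7-d and 1.40 ± 0.31 at 14-d, a difference of -2.33 ± 0.44 (edgeR adjusted p = 0.00633). The other arm, miR-34a-3p, was too low to be tested. It had 39, 37 and 8 reads in the high dose 7-d rats and 1, 2 and 3 in the high dose 14-d rats, against 0 to 2 reads in the 6 controls. Its high dose 14-d libraries and controls were therefore at or below 3 reads, and only the 7-d rats stood above that limit. miR-34c-5p, with the same seed but transcribed from another chromosome, was at 48.3 to 62.4 normalized RPM at 7-d and 34.3 to 57.5 at 14-d, and its difference of -0.12 ± 0.27 did not pass (edgeR adjusted p = 0.798).

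The pair miR-132 and miR-212 is transcribed as 1 unit that the factor CREB switches on, and it is best known from neurons and immune cells. All 3 tested strands of the list were called lower, with a list median of -2.47 against -0.19 over all tested. miR-132-3p was at 14.8, 16.8 and 20.7 normalized RPM in the high dose 7-d rats against 4.22, 5.55 and 3.59 in their controls, and at 5.11, 3.12 and 3.75 in the high dose 14-d rats against 4.15, 8.81 and 4.29 in theirs. The 3 high dose 7-d rats were above the other 9 libraries, and the 14-d rats overlapped their controls. The effect was 1.97 ± 0.32 at 7-d and -0.50 ± 0.33 at 14-d, and the difference -2.47 ± 0.46 (edgeR adjusted p = 0.00633). miR-212-5p had the largest difference of the 34, -3.84 ± 0.74 (edgeR adjusted p = 0.00699), at low counts: 37, 109 and 22 reads in the high dose 7-d rats and 4, 5 and 9 in the high dose 14-d rats, against 4, 3 and 5 in the 7-d controls and 8, 9 and 13 in the 14-d controls. The guide strand miR-212-3p was at 4.61, 3.27 and 4.34 normalized RPM at 7-d and at 0.835, 0.585 and 1.83 at 14-d, again with no overlap. Its difference of -2.07 ± 0.60 (edgeR adjusted p = 0.0403) was called in 3 of the 18 alternatives that gave it a value, with adjusted p up to 0.113.

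The miR-466 strands, which belong to a large rodent cluster inside Sfmbt2, were lower as a whole: 6 of 6 tested were called, with a median of -2.38. Because the hairpins are near copies, reads may be split among them or counted for several of them. miR-466b-2-3p and miR-466b-4-3p held identical counts in every library and amount to 1 measurement, so that the 34 called miRNAs are 33 distinct ones. miR-466b-5p was at 41.8, 29.4 and 50.1 normalized RPM in the high dose 7-d rats against 6.73, 7.58 and 7.28 in their controls, and at 9.50, 9.56 and 10.8 in the high dose 14-d rats against 7.32, 9.02 and 6.48 in theirs. The high dose 7-d rats stood apart, while the 14-d rats lay just above their controls. The difference was -2.09 ± 0.30 (edgeR adjusted p = 0.00232). miR-466c-5p was at 147, 95.1 and 174 normalized RPM in the high dose 7-d rats against 49.1, 56.9 and 40.9 in their controls, and at 63.8, 60.5 and 69.5 in the high dose 14-d rats against 60.9, 59.9 and 54.4 in theirs. Here too only the 7-d rats were separate, and the difference was -1.35 ± 0.29 (edgeR adjusted p = 0.0126). Of the 3p strands, miR-466b-2-3p was lower in level than miR-466b-5p in each library but control 14-d replicate 13. miR-466b-2-3p was at 2.74, 1.94 and 2.03 in the 7-d controls and 9.07, 3.36 and 5.17 in the 14-d controls, against 8.39, 6.47 and 8.80 in the 7-d and 3.34, 2.93 and 3.84 in the 14-d high dose rats, all in normalized RPM. Control 14-d replicate 13 held the highest value of the 12. Without it, miR-466b-2-3p was still called. The differences of miR-466b-2-3p, miR-466b-3p and miR-466c-3p were -2.60 ± 0.48, -2.83 ± 0.64 and -2.16 ± 0.64, and that of miR-466c-3p was called in 4 of 20 alternatives (adjusted p up to 0.110).

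**Figure D2:**
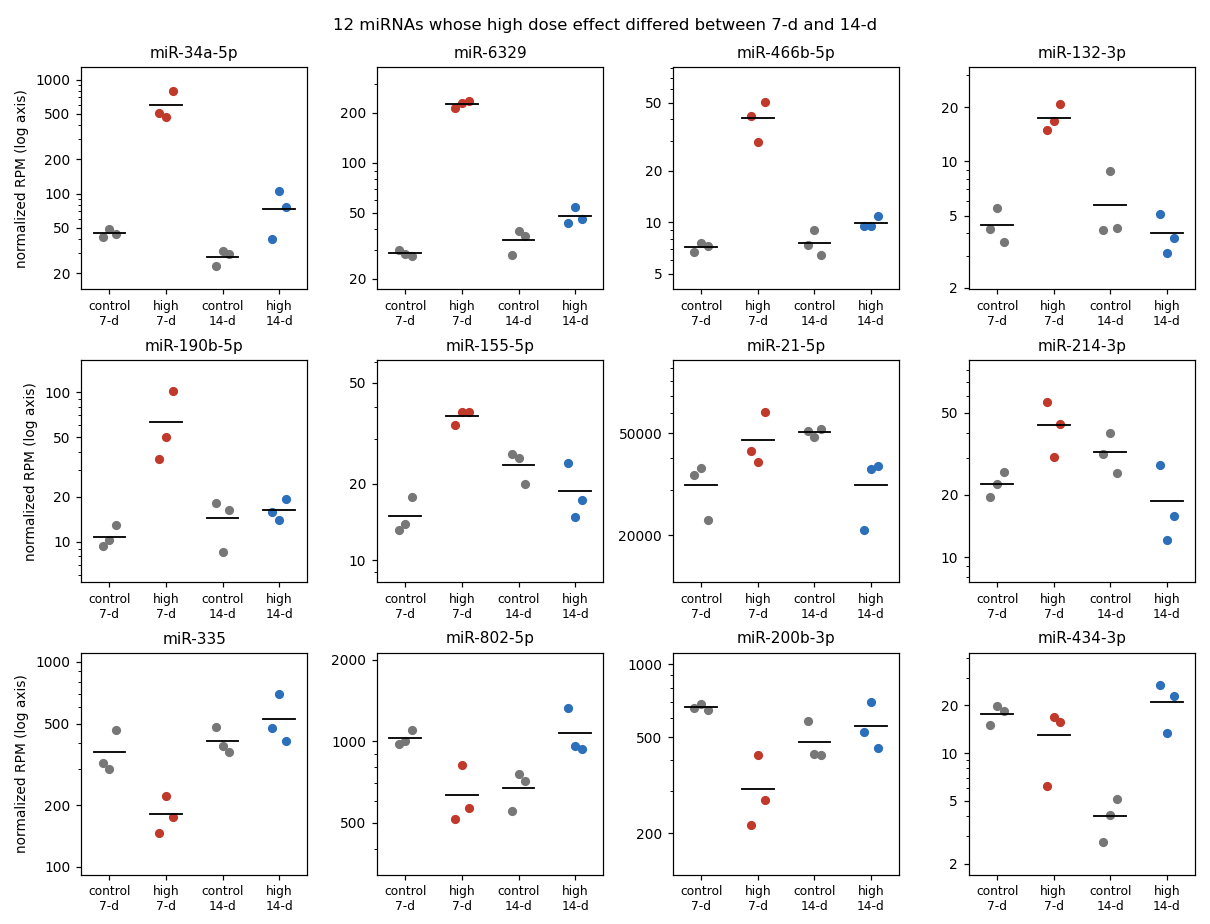
Normalized RPM (log axis) of 12 miRNAs in the 12 libraries. Each point is 1 rat and each line the mean of 3 rats. In the upper 2 lines of panels the red high dose 7-d points of all but miR-21-5p and miR-214-3p lie above every other point, and in the bottom line the high dose 7-d points of miR-335 are the lowest, while for miR-434-3p the 14-d controls are lowest.

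miR-21 is among the most abundant miRNAs of injured and regenerating liver. Both strands were called lower, and in both the 14-d controls were above the 7-d controls (0.69 ± 0.23 and 1.19 ± 0.34 for the 5p and 3p strands, neither called), while the 14-d minus 7-d difference within the high dose rats was -0.58 ± 0.23 and -1.13 ± 0.34. miR-21-5p was at 42574, 38546 and 60399 normalized RPM in the high dose 7-d rats against 34491, 36519 and 22882 in their controls, and at 21002, 36237 and 37289 in the high dose 14-d rats against 51088, 48446 and 52180 in theirs. The high dose 7-d rats were above their controls and the high dose 14-d rats below theirs, without overlap in either case. Neither effect passed on its own (0.59 ± 0.23, adjusted p = 0.0971, and -0.68 ± 0.23, adjusted p = 0.156), whereas their difference did, -1.27 ± 0.33 (edgeR adjusted p = 0.0263). That call was kept in 12 of 21 alternatives, with adjusted p up to 0.0759. The passenger strand was far lower in level and changed more. miR-21-3p was at 279.9, 331 and 400.0 normalized RPM in the high dose 7-d rats against 94.3, 108 and 72.4 in their controls, and at 73.6, 155 and 233 in the high dose 14-d rats against 217, 161 and 247 in theirs. The difference was -2.31 ± 0.48 (edgeR adjusted p = 0.0104) and was called in all 21 alternatives, although high dose 14-d replicate 7, at 73.6, and replicate 9, at 233, were far apart.

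Of the inflammation-linked miRNAs, miR-155-5p was called and the miR-146 strands were not. miR-155 is induced in activated macrophages and lymphocytes. miR-155-5p was at 34.1, 38.3 and 38.1 normalized RPM in the high dose 7-d rats against 13.1, 13.9 and 17.7 in their controls, and at 24.2, 14.8 and 17.3 in the high dose 14-d rats against 26.1, 25.3 and 19.98 in theirs. The high dose 7-d rats were above all others, and the 14-d rats overlapped their controls. The effect was 1.30 ± 0.21 at 7-d and -0.33 ± 0.21 at 14-d, with a difference of -1.64 ± 0.29 (edgeR adjusted p = 0.00633). miR-146b-5p, which the factor NF-κB induces, was at 589.7, 522 and 1098 in the high dose 7-d rats and 303, 291 and 282 in the high dose 14-d rats, without overlap, but its difference of -1.08 ± 0.37 did not pass (edgeR adjusted p = 0.0858). The summed leukocyte markers, 0 of 5 of which were called, were at 3093 to 4164 RPM in the high dose 7-d rats, 2569 to 4588 in the high dose 14-d rats and 3146 to 3896 in the 6 controls.

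Of the stellate and smooth muscle list, the fibrosis-linked miR-199a-5p, miR-199a-3p and miR-214-3p, whose hairpins are neighbours within the span of Dnm3, were called lower, and the 4 strands of miR-143 and miR-145 were not. Those 4 were at 0.50 ± 0.34 (miR-143-5p), 0.21 ± 0.20 (miR-143-3p), 0.25 ± 0.36 (miR-145-5p) and -0.15 ± 0.38 (miR-145-3p), and the list median over 7 tested was -0.15. The summed markers of these cells were at 32191 to 47723 RPM in the high dose 7-d rats and 45243 to 48143 in the high dose 14-d rats, against 42726 to 47033 in the 7-d and 40035 to 42895 in the 14-d controls. miR-214-3p was at 56.1, 30.4 and 43.99 normalized RPM in the high dose 7-d rats against 19.5, 22.5 and 25.9 in their controls, and at 27.9, 12.1 and 15.9 in the high dose 14-d rats against 31.6, 39.6 and 25.5 in theirs. The high dose 14-d rats were below the high dose 7-d rats and overlapped both control groups. The difference was -1.72 ± 0.43 (edgeR adjusted p = 0.0263). miR-199a-5p was at 288, 348 and 206 at 7-d and 154, 122 and 128 at 14-d in the high dose rats (difference -1.29 ± 0.34, edgeR adjusted p = 0.0263), and miR-199a-3p was at 789, 763 and 1033 at 7-d and 619, 599 and 597 at 14-d (difference -1.02 ± 0.27, edgeR adjusted p = 0.0263). In both strands all 3 high dose 14-d rats were below all 3 high dose 7-d rats. These 3 calls held under the upper quartile scaling and not under the other 3, with adjusted p up to 0.0722, 0.101 and 0.210 over the alternatives.

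miR-190b-5p and miR-7a-5p were the called members of the miR-7 and miR-190 list (2 of 5 tested). miR-190b-5p was at 35.99, 50.2 and 102 normalized RPM in the high dose 7-d rats against 9.36, 10.3 and 12.9 in their controls, and at 15.8, 14.05 and 19.2 in the high dose 14-d rats against 18.2, 8.60 and 16.4 in theirs. The 3 high dose 7-d rats differed widely among themselves, but each was above the other 9 libraries, and the 14-d rats overlapped their controls. The effect was 2.53 ± 0.38 at 7-d and 0.19 ± 0.37 at 14-d, and the difference -2.34 ± 0.52 (edgeR adjusted p = 0.0138). miR-190a-5p, which has the same seed, had a difference of -0.07 ± 0.42 and did not pass (adjusted p = 0.933). For miR-7a-5p the high dose 14-d rats, at 35.3, 37.1 and 37.1 normalized RPM, were below the 7-d rats at 68.7, 84.3 and 121 and above their own controls at 28.95, 28.2 and 25.7. Its difference of -1.08 ± 0.28 (edgeR adjusted p = 0.0263) was called in 6 of 21 alternatives (adjusted p up to 0.224). In the cluster of miR-183, miR-96 and miR-182, best known from sensory cells and from tumors, miR-182 was called (-1.24 ± 0.30, edgeR adjusted p = 0.0235). It was at 3415, 3521 and 2073 in the high dose 7-d rats and 1715, 2067 and 1638 in the high dose 14-d rats, and was called in 12 of 21 alternatives (adjusted p up to 0.0951). miR-183-5p (-1.34 ± 0.44, adjusted p = 0.0784) and miR-96-5p (-1.64 ± 0.66, adjusted p = 0.167) did not pass.

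Several called miRNAs belonged to no list. miR-6329, a miRNA named in rodents, had the smallest p of all. miR-6329 was at 213, 231 and 235 normalized RPM in the high dose 7-d rats against 29.8, 28.1 and 27.6 in their controls, and at 43.3, 54.0 and 45.7 in the high dose 14-d rats against 27.8, 39.01 and 36.3 in theirs. The 7-d rats were far above the rest and the 14-d rats stood just above their controls without overlap. The effect was 2.99 ± 0.17 at 7-d and 0.47 ± 0.16 at 14-d (adjusted p = 0.155), and the difference -2.52 ± 0.23 (edgeR adjusted p = 2.74e-05). miR-185-5p was at 18.5, 12.6 and 16.1 normalized RPM in the high dose 7-d rats against 6.85, 7.49 and 6.73 in their controls, and at 8.04, 4.88 and 6.19 in the high dose 14-d rats against 10.3, 8.28 and 7.53 in theirs. Its high dose 14-d rats were, apart from replicate 7, below all controls of that day, and the difference was -1.59 ± 0.33 (edgeR adjusted p = 0.0104). miR-3559-3p was at 58.7, 69.6 and 91.3 normalized RPM in the high dose 7-d rats against 31.8, 33.1 and 22.4 in their controls, and at 32.04, 28.9 and 35.7 in the high dose 14-d rats against 40.3, 27.9 and 34.6 in theirs. The 7-d rats were again separate and the 14-d rats lay among their controls, with a difference of -1.42 ± 0.31 (edgeR adjusted p = 0.0126). The called miRNAs of highest level beside miR-21-5p were miR-191a-5p and miR-186-5p. miR-191a-5p was at 26771, 18755 and 17051 in the high dose 7-d rats and at 11850 to 12261 in the high dose 14-d rats, against 11226 to 12949 in the 7-d and 12906 to 13520 in the 14-d controls (difference -0.90 ± 0.21, edgeR adjusted p = 0.0159). That of miR-191a-5p was called in 1 of 4 scalings and in 13 of 21 alternatives (adjusted p up to 0.210). miR-186-5p was at 4270, 4768 and 3295 in the high dose 7-d rats and 2617, 2212 and 2529 in the high dose 14-d rats (difference -0.77 ± 0.21, edgeR adjusted p = 0.0296), and was called in 3 of 21 alternatives, with adjusted p up to 0.397. The other called miRNAs without a list, named here after their values were seen, were miR-674-5p (-1.23 ± 0.31), miR-674-3p (-0.88 ± 0.24), miR-872-3p (-0.72 ± 0.18), miR-3473 (-1.19 ± 0.33) and miR-219a-1-3p (-1.22 ± 0.35), with adjusted p of 0.0263 to 0.0393. These calls were mostly lost: miR-674-5p was called in 10 of 21 alternatives (adjusted p up to 0.206), miR-674-3p in 8 of 21 (0.398), miR-872-3p in 6 of 21 (0.600), miR-3473 in 3 of 20 (0.261) and miR-219a-1-3p in 4 of 20 (0.257).

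**Figure D3:**
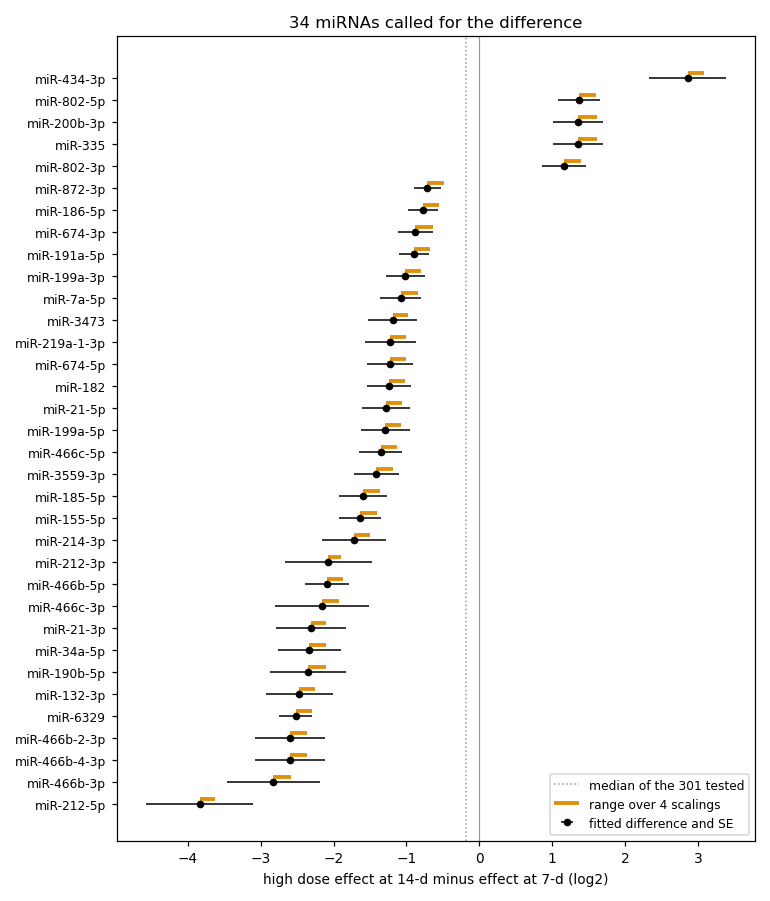
Difference in the effect of the high dose, 14-d minus 7-d (log2), for the 34 called miRNAs. Black points and bars are the fitted value and its standard error, orange lines the range over 4 scalings, and the dotted line the median of all tested, -0.19. The 29 lower miRNAs range from -3.84 to -0.72 and the 5 higher ones from 1.16 to 2.85.

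Among the 5 higher miRNAs, both strands of miR-802, a miRNA abundant in liver, together with miR-335 and miR-200b-3p were below control in all 3 rats at 7-d, and in miR-434-3p the controls moved. miR-802-5p was at 515, 820.0 and 566 normalized RPM in the high dose 7-d rats against 977, 1001 and 1097 in their controls, and at 1325, 960.0 and 935 in the high dose 14-d rats against 554, 755 and 714 in theirs. The high dose rats were below their controls at 7-d and above them at 14-d, without overlap at either time. The effects were -0.69 ± 0.20 and 0.67 ± 0.20, of which the first passed (adjusted p = 0.0330), and the difference was 1.36 ± 0.29 (edgeR adjusted p = 0.0116). miR-802-3p, the other arm, was at 279, 418 and 423 in the 7-d and 689.9, 505 and 498 in the 14-d high dose rats (difference 1.16 ± 0.31, edgeR adjusted p = 0.0263). miR-335 was at 146, 222.1 and 174 normalized RPM in the high dose 7-d rats against 323, 300.3 and 464 in their controls, and at 477, 694 and 411 in the high dose 14-d rats against 484, 389 and 363 in theirs. The 7-d rats were the lowest group, and the 14-d rats overlapped their controls. miR-335, which shares its transcript with the imprinted gene Mest, had a difference of 1.36 ± 0.34 (edgeR adjusted p = 0.0263). miR-200b-3p was at 215, 423 and 274 normalized RPM in the high dose 7-d rats against 661, 685 and 649.9 in their controls, and at 525, 699 and 450.0 in the high dose 14-d rats against 582, 426 and 419 in theirs. miR-200b-3p marks epithelial cells, where it restrains Zeb1 and Zeb2, and in liver it is found mainly in bile duct. Its high dose 7-d rats were below their controls and, but for replicate 26, below every 14-d library, and the 14-d rats overlapped their controls. The difference was 1.36 ± 0.34 (edgeR adjusted p = 0.0263). The 5 other tested members of its list did not pass and lay on both sides of 0. miR-429 (0.86 ± 0.31), miR-200a-5p (0.82 ± 0.65) and miR-200a-3p (0.46 ± 0.37) were above 0, and miR-141-3p (-1.20 ± 0.60) and miR-200c-3p (-0.46 ± 0.44) below it, with adjusted p of 0.118 to 0.551 and a list median of 0.64. The calls of miR-802-3p, miR-335 and miR-200b-3p were lost in 6, 4 and 6 of the 12 fits that left out a library, with adjusted p up to 0.0748, 0.0708 and 0.232 over the alternatives.

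miR-434-3p comes from the imprinted Dlk1-Dio3 region, which encodes many miRNAs that are high in embryo and brain and low in adult liver. miR-434-3p was at 6.21, 16.9 and 15.7 normalized RPM in the high dose 7-d rats against 14.95, 19.97 and 18.3 in their controls, and at 26.9, 13.5 and 23.02 in the high dose 14-d rats against 2.73, 4.09 and 5.17 in theirs. The 14-d controls were lower than the other 9 libraries. Their change from 7-d was -2.14 ± 0.39 (adjusted p = 0.0258), while the high dose rats changed by 0.71 ± 0.36 (adjusted p = 0.224), and the difference was 2.85 ± 0.53 (edgeR adjusted p = 0.00633). Of the 83 list members with a read, 6 were tested and 1 was called. All 6 differences were above 0 (median 1.59) and the median change in the controls was -1.77. miR-411-5p, for example, was at 17.01, 15.9 and 12.1 in the 7-d controls and 2.95, 3.78 and 5.17 in the 14-d controls, and at 5.96, 17.97 and 23.1 in the 7-d and 14.6, 10.9 and 13.8 in the 14-d high dose rats (difference 1.66 ± 0.56, adjusted p = 0.0836).

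No member of the other lists was called. The hepatocyte miRNAs had a median difference of -0.23 (4 tested), with miR-122-5p at 27214 to 36616 in the high dose 7-d rats and 30336 to 36058 in the high dose 14-d rats, against 32766 to 34146 in the 7-d and 35632 to 45769 in the 14-d controls (-0.14 ± 0.18, adjusted p = 0.668). The 9 let-7 guide strands had a median of -0.29, the 5 tested miR-29 strands, which hold down collagen genes, a median of -0.40, and the 3 strands of the list of miR-221 and miR-222, raised in many liver tumors, a median of -0.52. miR-455-3p was at 33.8, 34.2 and 64.7 in the high dose 7-d rats and 56.8, 51.1 and 54.2 in the high dose 14-d rats, against 65.6, 71.6 and 51.1 in the 7-d and 175, 77.4 and 115 in the 14-d controls, a difference of -0.67 ± 0.43 (adjusted p = 0.390). In all, 10 of the 37 lists held a called miRNA, and in 3 every tested member was called (miR-466, miR-132 with miR-212, and miR-21). The lists were assembled with results of these data known.

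The red blood cell miRNAs were the list with the largest positive median difference without a call for that difference, 1.25 over 4 tested. Of the 4, 2 were called below control at 7-d (4.98% of all tested were). Within the high dose rats, 2 of the 4 were called higher at 14-d than at 7-d (2.33% of all tested). The red blood cell markers summed to 872 to 3768 RPM in the high dose 7-d rats, 2766 to 6709 in the high dose 14-d rats, 4061 to 6085 in the 7-d controls and 3596 to 4934 in the 14-d controls. miR-451-5p, for instance, was at 184, 82.0 and 130.2 in the high dose 7-d rats and 156, 319 and 407 in the high dose 14-d rats, against 335, 408 and 224 in the 7-d and 423, 284 and 264 in the 14-d controls (1.15 ± 0.52, adjusted p = 0.253). The red blood cell markers were thus lower in the high dose 7-d rats than in their controls without overlap, at the time where the called miRNAs stood apart, and their part in the results was not tested.

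**Figure D4:**
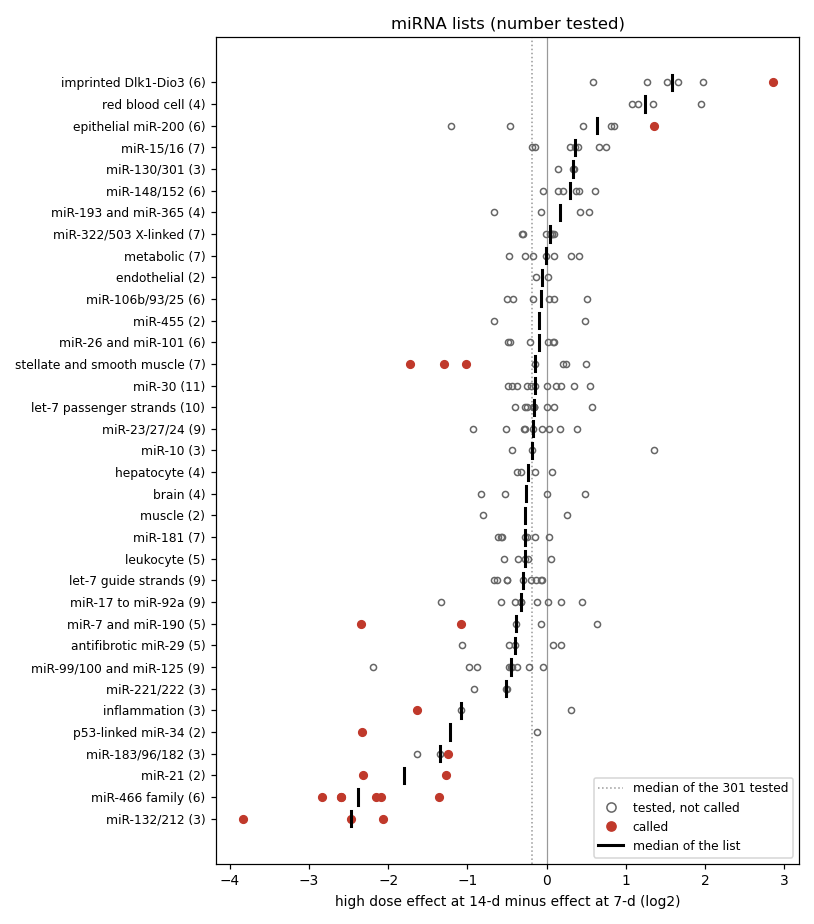
Difference in the effect of the high dose, 14-d minus 7-d (log2), for the tested members of each miRNA list, with the number tested in brackets. Filled points are called miRNAs, open points are not, bars are list medians and the dotted line is the median of all tested. All tested members of the miR-132 with miR-212, miR-466 and miR-21 lists are filled and to the left, and all 6 of the Dlk1-Dio3 list are to the right of 0 with 1 filled.

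To place the groups, each was set against the range of the 9 controls taken at 7-d or later. Of the 29 lower miRNAs, 20 had all 3 high dose 7-d rats above that range, against 14.6% of all tested. At 14-d this was so for 1 of the 29 (0.664% of all tested), and 13 had all 3 high dose rats within the range, where 48.8% of all tested were. These high dose rats and their controls also entered the contrast that called the 29, so the counts at 7-d and 14-d are descriptions. At the same dose, 3 of the 29 had all 3 rats above the range at 3-d (0.997% of all tested) and 9 at 28-d (4.98%). The 3-d rule could fail on 1 rat. For miR-34a-5p, high dose 3-d replicates 22 and 23 were above the range (254 and 290 normalized RPM) and replicate 24 within it (33.5). For miR-6329 they were at 140, 109 and 36.2, again with replicate 24 within the range. The low dose had 9 of the 29 above the range at 7-d and 13 at 14-d (16.3% and 21.9% of all tested), and the middle dose 12 and 13 (8.64% and 11.3%).

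From 7-d to 14-d, 0 of the tested miRNAs were called at the low dose and 0 at the middle dose (edgeR fit of all 48 libraries, with 5 and 8 at an unadjusted p below 0.05), against 35 (11.6%) at the high dose in the same fit. The 48 libraries included control 3-d replicate 1, which held 293331 counts, and its influence on this fit was not tested. The change from 7-d to 14-d at the high dose differed from that at the low dose for 9 miRNAs (2.99%), all lower, and from that at the middle dose for 15 (4.98%), 13 of them lower. Both tests share the high dose libraries with each other and with the contrast that called the 29. In both, 6 were called, and these are among the 29: miR-6329, miR-34a-5p, miR-132-3p, miR-466b-5p, miR-185-5p and miR-190b-5p.

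Of these 6, miR-34a-5p had the largest difference between doses. It was at 516, 559 and 423 normalized RPM at 7-d and 559, 518 and 1080 at 14-d with the low dose, and at 295, 188 and 213 at 7-d and 493, 568 and 344 at 14-d with the middle dose. The 3 high dose 14-d rats, at 39.5 to 106, were thus below every rat of the lower doses at either time. The change at the high dose minus that at the low dose was -3.54 ± 0.69 (edgeR adjusted p = 0.00137), and minus that at the middle dose -4.03 ± 0.69 (adjusted p = 1.74e-04). miR-6329 was at 88.0 to 111 at 7-d and 75.8 to 185 at 14-d with the low dose, and at 87.1 to 113 and 94.6 to 136 with the middle dose. The high dose 7-d rats were above all of these and the high dose 14-d rats below all of them, and the differences of the change were -2.76 ± 0.41 (adjusted p = 1.56e-05) and -2.41 ± 0.40 (adjusted p = 1.74e-04). For miR-190b-5p the low dose, at 47.8, 66.1 and 79.6 at 7-d and 52.8, 77.4 and 89.3 at 14-d, overlapped the high dose at 7-d, and the high dose 14-d rats, at 14.05 to 19.2, were below all 6 (-2.12 ± 0.61, adjusted p = 0.0482). For miR-132-3p, miR-466b-5p and miR-185-5p the high minus low differences were -2.69 ± 0.56, -1.96 ± 0.44 and -1.55 ± 0.36, and the high minus middle ones -2.14 ± 0.55, -2.21 ± 0.44 and -1.84 ± 0.36. miR-155-5p, called against the controls, was not called against the low dose (-1.17 ± 0.51, adjusted p = 0.221) or the middle dose (-0.99 ± 0.51, adjusted p = 0.337). Of the higher miRNAs, miR-335 was called against the middle dose (2.09 ± 0.48, adjusted p = 0.00542) and not against the low dose (1.19 ± 0.47, adjusted p = 0.153). The red blood cell miRNA miR-144-3p, not called against the controls, was also among the 15 called against the middle dose, and not against the low dose.

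**Figure D5:**
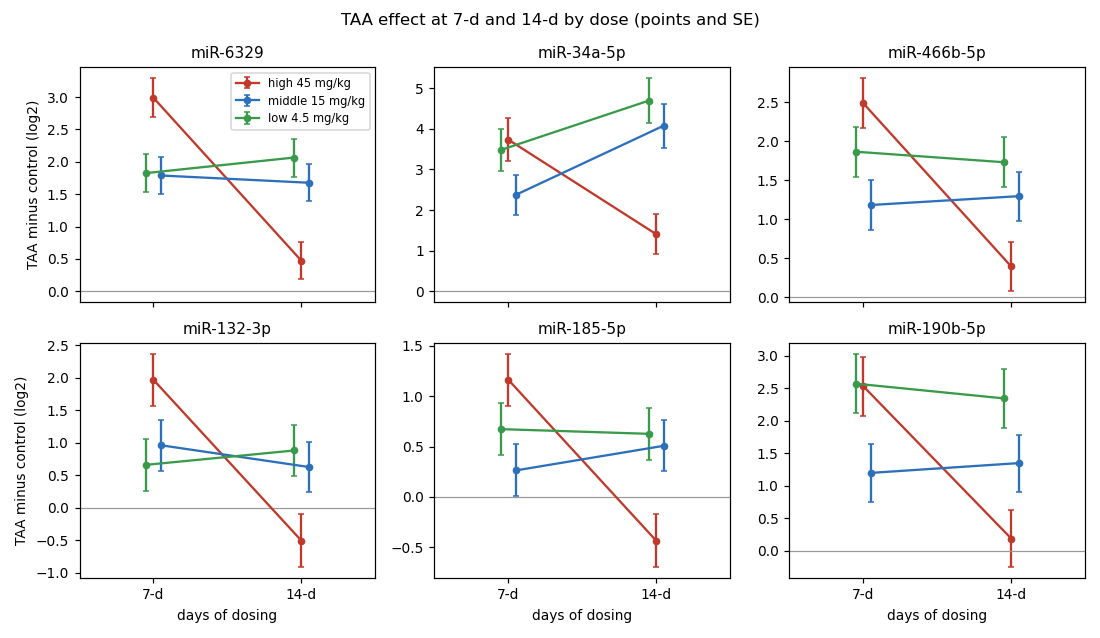
Effect of TAA against the controls of the same day (log2, vertical axis, scaled for each miRNA) at 7-d and 14-d for the 3 doses, from the fit of 48 libraries. Points are fitted effects, bars their standard errors, and the horizontal line is 0. The red line of the high dose falls in each of the 6 panels, from 3.73 to 1.40 for miR-34a-5p. For miR-34a-5p the lines of the low and middle doses rise.

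At 28-d of the same dose, miR-34a-5p was at 170.0, 74.8 and 186 normalized RPM, between its 14-d and 7-d levels but for replicate 20, which lay within the 14-d range. miR-6329 was at 62.4, 50.7 and 62.4, miR-132-3p at 5.71, 5.79 and 5.01 and miR-155-5p at 18.5, 16.1 and 32.7, each below every high dose 7-d rat.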

How the data were processed

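Small RNA was sequenced from liver of 48 rats, and the authors deposited 1 table of raw read counts per miRNA precursor and library. Per the methods and the submitters' processing notes, reads were checked with FastQC, trimmed of adaptors and counted by miRDeep2 against miRBase on the rn5 genome. Of 847 precursor entries, the one with the most reads was kept for each of 764 mature miRNAs, 71 of which had several. Samples were grouped by their titles.

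Counts were normalized by the upper quartile and fitted with edgeR 4.0.16 (R 4.3.3, limma 3.58.1; quasi-likelihood F-test) over the 4 groups of 12 libraries, for miRNAs with 5 RPM or more in at least 3 of the 48 libraries. The contrast was the high dose minus control at 14-d less the same at 7-d. A miRNA was called at a Benjamini-Hochberg adjusted p below 0.05 over all tested miRNAs, and the standard error was the fold change divided by the root of F. Alternatives were TMM, DESeq2 1.42.0 (size factors and Wald test), library size, other filters, summed precursors, the fit of 48 libraries, the study's thresholds and leaving out each library. The fit was tested on simulated data. The contrasts between doses, from the fit of 48 libraries, were added after the data were seen. The text names the miRNAs the study names, the up to 12 called miRNAs of smallest p in each direction, up to 4 members of each list and the 3 called miRNAs of highest level, and says where it names others. Members and lists were chosen with earlier results of these data known. Each library is from a separate rat, and limits of 3 counts cover counting error only. Python 3.11.15, pandas 2.3.3, numpy 2.4.6 and matplotlib 3.10.9 were used.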

Additional observations from a re-analysis of the deposited data

Results flagged for a closer look

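Each of the 34 miRNAs below had an effect of the high dose that differed between 7-d and 14-d by the test of that difference itself (edgeR, adjusted p below 0.05), and the value given is the log2 difference, 14-d minus 7-d. In 23 of the 34 the fitted effects at 7-d and 14-d had opposite signs, which this contrast favors. Of the 29 lower ones, 0 were called below control at 14-d (0.997% of all tested were), and their median effect there was -0.15. Of the 5 higher ones, 1 was called above control at 14-d (0.664% of all tested were). The count of signs is a description, given without its share over all tested.

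At 14-d the effect was lower for miR-212-5p (-3.84), miR-466b-3p (-2.83), miR-466b-2-3p (-2.60), miR-466b-4-3p (-2.60), miR-6329 (-2.52), miR-132-3p (-2.47), miR-190b-5p (-2.34), miR-34a-5p (-2.33), miR-21-3p (-2.31) and miR-466c-3p (-2.16). It was also lower for miR-466b-5p (-2.09), miR-212-3p (-2.07), miR-214-3p (-1.72), miR-155-5p (-1.64), miR-185-5p (-1.59), miR-3559-3p (-1.42), miR-466c-5p (-1.35), miR-199a-5p (-1.29), miR-21-5p (-1.27) and miR-182 (-1.24), and for miR-674-5p (-1.23), miR-219a-1-3p (-1.22), miR-3473 (-1.19), miR-7a-5p (-1.08), miR-199a-3p (-1.02), miR-191a-5p (-0.90), miR-674-3p (-0.88), miR-186-5p (-0.77) and miR-872-3p (-0.72). The effect was higher at 14-d for miR-434-3p (2.85), miR-802-5p (1.36), miR-335 (1.36), miR-200b-3p (1.36) and miR-802-3p (1.16).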

How the results depend on the processing

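Counts of called miRNAs depended on the setting, and the cause was not tested. The 34 differences between 14-d and 7-d became 14 with 5 RPM required in every library (10 lower), 20 with DESeq2's size factors (14 lower), 22 in the single fit of 48 libraries (18 lower) and 53 with the study's thresholds (12 higher). The 5 higher ones became 10 with DESeq2's Wald test, 10 with TMM and 16 without a filter, and the 29 lower ones 14 with TMM, 16 with library size alone and 19 without a filter. Leaving out 1 library gave 17 to 44 calls, 2 to 10 higher and 14 to 35 lower. The high dose against control at 7-d gave 28 with 5 RPM in every library and 27 to 76 without 1 library. At 14-d its 5 calls became 0 with 5 RPM in every library, 14 with DESeq2's Wald test, 1 with DESeq2's size factors, 1 with TMM, 15 with library size alone, 14 without a filter, 1 in the fit of 48 libraries, 28 with the study's thresholds and 0 to 11 without 1 library. High dose 14-d against 7-d gave 27 to 51 without 1 library. The controls' 2 calls became 0 with 5 RPM in every library, 19 with DESeq2's Wald test, 7 with library size alone, 13 without a filter, 6 with summed precursors, 26 with the study's thresholds and 0 to 8 without 1 library. Of the 34, 20 were still called in the fit of 48 libraries, 19 with TMM and 27 with DESeq2's Wald test.

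No paired analysis was possible because the rats carry running numbers that no pair of groups shares. With 3 rats in a group, miRNAs of few reads, such as miR-212-5p and the 3p strands of miR-466, have wide errors, and the limit of 3 counts was 0.201 to 0.621 RPM.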

Other observations

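Some miRNAs had large differences that did not pass, and they are named here after their values were seen. miR-6321 had a difference of 3.56 ± 1.68 (edgeR adjusted p = 0.275) and miR-743b-3p one of -3.94 ± 2.68 (edgeR adjusted p = 0.420). miR-100-5p was at 198, 1539 and 125 normalized RPM in the high dose 7-d rats, so that replicate 26 stood far above the other 2, and its difference was -2.19 ± 0.96 (edgeR adjusted p = 0.231).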
